A study of Arabidopsis thaliana with 48 samples.

Results

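The aquaporins of Arabidopsis thaliana are described here as 34 genes, taken by locus identifier from the plasma membrane (PIP), tonoplast (TIP), NOD26-like (NIP) and small basic (SIP) subfamilies, out of 33553 genes in the deposited tables. Their names are printed with a hyphen, as PIP1-3 for the gene whose symbol also carries a semicolon between its digits. All 34 identifiers were present. The RNA libraries came from whole seedlings of the Col-0 ecotype at 12 days of age, kept on plates in days of 16 h light and 8 h dark, with 3 libraries of wild type (WT) and 3 of acc1-5. ACC1 encodes the cytosolic acetyl-CoA carboxylase, and acc1-5 is a mutant of that gene. Its RNA level does not tell the genotypes apart, since the main ACC1 transcript was listed at 33.1 FPKM in WT (the authors' bounds 21.6 to 44.7) and 33.4 FPKM in acc1-5 (21.4 to 45.4). FPKM relate fragments to transcript length and library size, so levels can be compared between genes. The treatment text of the labels, an estradiol or solvent spray, is the same for every sample, so any spray of the RNA seedlings is unclear. The tables hold 1 FPKM value per genotype with a lower and an upper bound, so the spread between libraries is not seen, and each value below is the authors' estimate. The labels do not say whether libraries came from separately grown seedlings. Log2 fold changes were computed from these FPKM as acc1-5 over WT, and a gene was called where the authors' program tested it and its q-value was under 0.05.

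Aquaporins are membrane channels that let water pass down its osmotic gradient, and several also carry small uncharged solutes such as glycerol, urea, ammonia, boric acid, arsenite or hydrogen peroxide. PIPs sit in the plasma membrane, where PIP1 proteins generally reach the surface in tetramers with PIP2 proteins. TIPs sit in the vacuolar membrane, NIPs mostly in the plasma membrane and SIPs in the endoplasmic reticulum. In roots they set much of the radial water flow from soil to xylem, and in shoots they act in veins, guard cells and expanding tissue.

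Of the 34 genes, 29 were tested, and 9 of these were called, 7 higher and 2 lower in acc1-5. These are 31.0% of the tested members, while 19.9% of the 20509 tested genes were called in either direction. The higher calls are 24.1% of the tested members, where 10.9% of all tested genes were called higher. The lower calls are 6.90% of the tested members, below the 9.04% of all tested genes called lower. The genes called higher were PIP2-2, PIP2-3, TIP2-3, TIP4-1, NIP1-1, NIP5-1 and SIP1-2, and those called lower were PIP1-3 and PIP2-7. With the p-values adjusted over 1 transcript a gene, the counts stayed at 7 and 2, where 11.5% and 9.74% of tested genes pass. With a q-value under 0.01 they were 6 and 1, where 7.71% and 5.7% pass, and bounds that do not overlap left 3 higher and 0 lower, where 5.24% and 1.63% of tested genes do so. Each subfamily held at least 1 gene called higher, and both genes called lower were PIPs. Of the 27 members with a mean level of at least 1 FPKM over both genotypes, 16 had a higher value in acc1-5 and 11 a lower one, and their median log2 fold change was 0.12, against -0.02 over the 19137 tested genes of such a level.

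**Figure D1:**
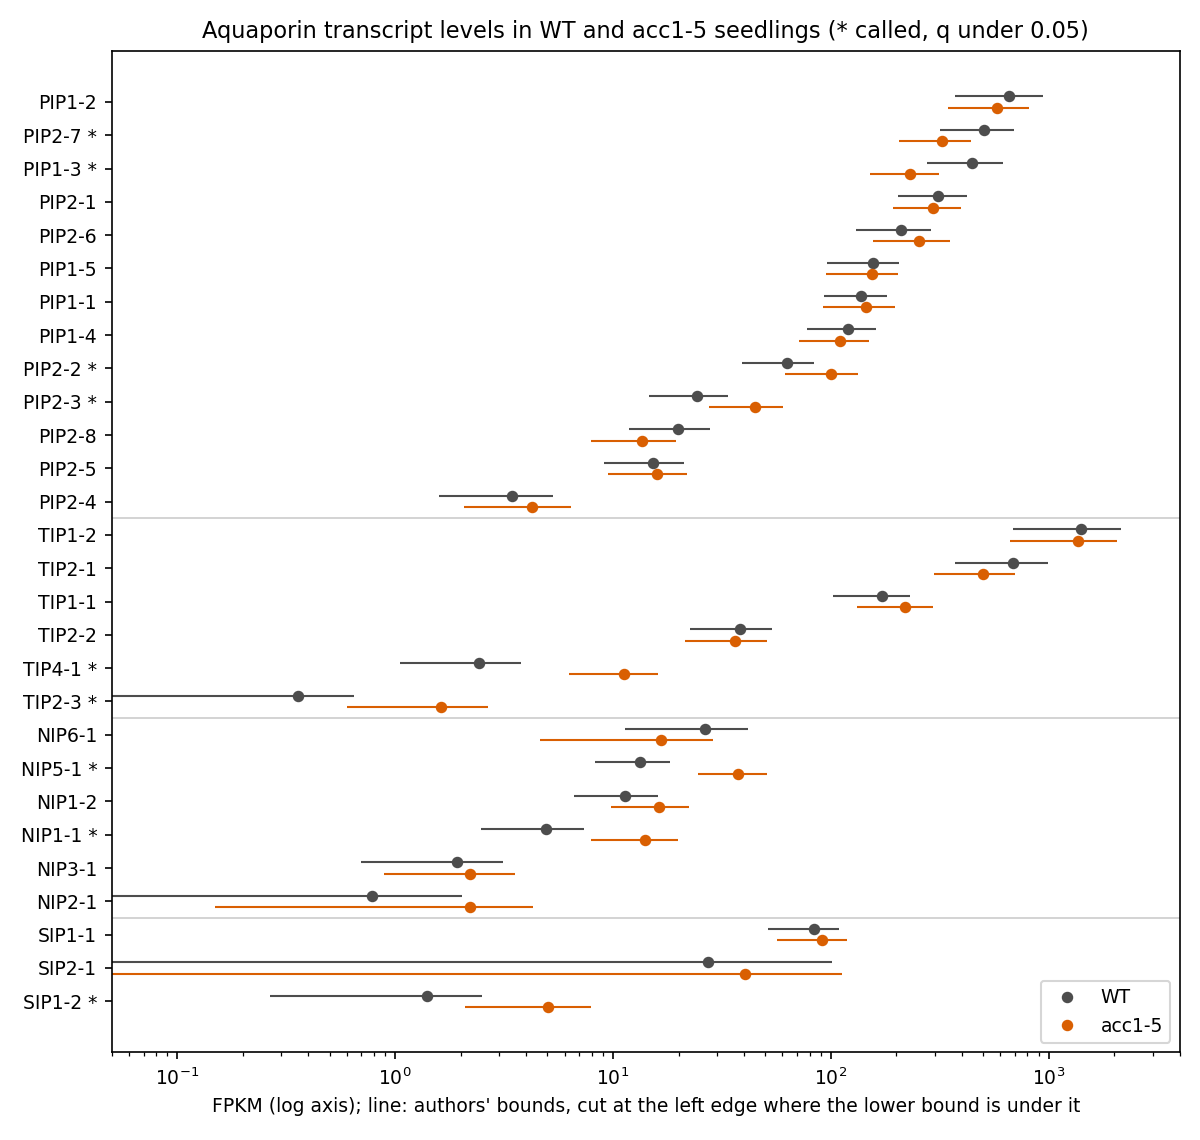
Levels of the 27 members with a mean of at least 1 FPKM, and of TIP2-3, on a log axis of FPKM, with WT in grey and acc1-5 in orange; lines are the authors' bounds and an asterisk marks a called gene. TIP1-2 is the highest in both genotypes, and the bounds of the genotypes stand apart for TIP4-1, NIP1-1 and NIP5-1.

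The PIP1 genes were high in both genotypes, and 1 of the 5 was called. PIP1-3 (AT1G01620, chromosome 1, 225665 to 227302 on TAIR10) was listed at 446 FPKM in WT (277 to 616) and 232 FPKM in acc1-5 (151 to 313). It fell 1.92-fold, or -0.94 on the log2 scale, with q = 0.000746 in the authors' deposited table, although the bounds of the genotypes overlap. This was the largest fall on the log2 scale among the tested aquaporins. PIP1-2, a major plasma membrane channel of rosette leaves and roots, had 659 FPKM in WT (374 to 945) and 581 in acc1-5 (347 to 815). PIP1-1, PIP1-4 and PIP1-5 had 137, 120 and 156 FPKM in WT and 145, 111 and 154 in acc1-5. For PIP1-1, PIP1-2, PIP1-4 and PIP1-5 the log2 fold changes lay between -0.18 and 0.08 and none was called, but the bounds also allow acc1-5 to WT ratios of 0.51 to 2.11 for PIP1-1 and 0.37 to 2.18 for PIP1-2.

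The 8 PIP2 genes went in both directions. PIP2-7 (AT4G35100, chromosome 4, 16708552 to 16710289), another abundant channel, was listed at 506 FPKM in WT (318 to 694) and 323 in acc1-5 (206 to 440.3), a 1.56-fold fall with q = 0.0282 in the authors' deposited table. Its closest relative, PIP2-8, had 19.9 FPKM in WT (11.9 to 27.8) and 13.6 in acc1-5 (7.89 to 19.4), a change of -0.55 on the log2 scale that was not called (the authors' deposited table gives q = 0.0686). In contrast, PIP2-2 and PIP2-3 rose. These are neighbours on chromosome 2, at 15613402 to 15614857 and 15617708 to 15619155, with 2850 bases and no other listed gene between their transcripts. PIP2-2 (AT2G37170), which contributes to the water permeability of roots, had 63.1 FPKM in WT (38.9 to 83.8) and 100.2 in acc1-5 (61.4 to 133). PIP2-3 (AT2G37180), first described as a gene responsive to desiccation, had 24.4 FPKM in WT (14.7 to 33.8) and 45.0 in acc1-5 (27.7 to 60.1). The rises were 1.59-fold and 1.85-fold, and the authors' deposited table gives q-values of 0.00443 and 0.000746, while in both genes the bounds of the genotypes overlap. The genes are near-identical in sequence, so how reads were split between them is uncertain. Their summed level does not depend on that split and went from 87.5 to 145 FPKM, a ratio of 1.66. The other PIP2 genes were not called. PIP2-1, which acts in veins, roots and guard cells, had 312 FPKM in WT and 295 in acc1-5. PIP2-6, a leaf channel, had 210.2 FPKM in WT (130.2 to 287) and 255 in acc1-5 (156 to 352). PIP2-5 had 15.3 and 15.9 FPKM, and PIP2-4, a root channel, 3.45 and 4.25 FPKM in WT and acc1-5.

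The summed level of the 5 PIP1 genes went from 1518 FPKM in WT to 1222 in acc1-5, and that of the 8 PIP2 genes from 1154 to 1052. The ratio of PIP1 to PIP2 transcripts was 1.32 in WT and 1.16 in acc1-5. Neither sum has an error, since the tables hold no values of single libraries. The median log2 fold change over the 13 PIP genes was -0.02, with a lowest value of -0.94 and a highest of 0.89.

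Among the TIP genes the abundant members were not called, while 2 low members rose. TIP1-2, a channel of the large vacuole, had the highest level of any aquaporin in both genotypes, 1415 FPKM in WT (685 to 2142) and 1369 in acc1-5 (666 to 2071), and stood at rank 51 of all genes in WT and rank 39 in acc1-5. TIP1-1, its closest relative and a marker of the lytic vacuole, had 171 FPKM in WT and 219 in acc1-5 (the authors' deposited table gives q = 0.251). TIP2-1, a channel for water and ammonia found mainly in shoots, had 684 FPKM in WT (370.1 to 995) and 499.5 in acc1-5 (296 to 703), a change of -0.45 on the log2 scale that was not called (the authors' deposited table gives q = 0.254). TIP2-2, found mainly in roots, had 38.4 and 36.3 FPKM in WT and acc1-5. The bounds of TIP1-2 allow an acc1-5 to WT ratio of 0.31 to 3.03, so a sizeable change of this gene is not excluded.

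TIP4-1 (AT2G25810, chromosome 2, 11012506 to 11014170), a tonoplast channel of roots, was listed at 2.42 FPKM in WT (1.05 to 3.77) and 11.3 in acc1-5 (6.30 to 16.1). It rose 4.65-fold, with q = 0.000746 in the authors' deposited table, and the bounds of the genotypes do not overlap. Its log2 fold change of 2.22 was the largest among the 29 tested aquaporins. TIP2-3 (AT5G47450, chromosome 5, 19248249 to 19249504), a root channel for water and ammonia, rose 4.51-fold, from 0.360 FPKM in WT (0.0431 to 0.647) to 1.62 in acc1-5 (0.604 to 2.67), with q = 0.0165 in the authors' deposited table. Its mean level was under 1 FPKM, a range in which rises were common: of tested genes with a WT level under 1 FPKM, 32.3% were called higher. The pollen genes TIP1-3 and TIP5-1 and the seed gene TIP3-2 stood at 0.183 FPKM or less in WT and 0.348 or less in acc1-5, and were not tested.

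Within the NIP genes, 2 of 7 tested members, or 28.6%, were called higher and none lower. Over all tested genes 10.9% were called higher and 9.04% lower, so the lack of falls among 7 genes is near that background. NIP5-1 (AT4G10380, chromosome 4, 6431236 to 6434822), the channel that takes boric acid into root cells when boron is scarce, was listed at 13.3 FPKM in WT (8.25 to 18.3) and 37.7 in acc1-5 (24.5 to 50.8). NIP1-1 (AT4G19030, chromosome 4, 10421525 to 10423487), which lets arsenite and antimonite into roots, was listed at 4.93 FPKM in WT (2.47 to 7.35) and 14.01 in acc1-5 (7.93 to 19.9). The rises were 2.83-fold and 2.84-fold, both with q = 0.000746 in the authors' deposited table, and in both genes the bounds of the genotypes do not overlap. NIP1-2, a relative of NIP1-1 that carries aluminium malate, had 11.4 FPKM in WT (6.62 to 16.1) and 16.4 in acc1-5 (9.77 to 22.5) and was not called (the authors' deposited table gives q = 0.0944). NIP2-1, a root channel for lactic acid that is known to respond to low oxygen, had 0.782 FPKM in WT (0 to 2.03) and 2.20 in acc1-5 (0.149 to 4.28). Its log2 fold change of 1.50 equals that of NIP5-1 to 2 decimals, but its bounds overlap between the genotypes and it was not called (the authors' deposited table gives q = 0.309). NIP6-1, which passes boric acid to young leaves, had 26.5 FPKM in WT (11.4 to 41.5) and 16.6 in acc1-5 (4.61 to 28.7). Its log2 fold change of -0.67 was slightly larger in size than the -0.65 of PIP2-7, and NIP6-1 was not called (the authors' deposited table gives q = 0.346). NIP3-1 had 1.92 and 2.20 FPKM in WT and acc1-5, and NIP7-1, an anther channel for boric acid, 0.566 and 0.576. NIP4-1, a gene of pollen, was listed at 0 in both genotypes, and its neighbour NIP4-2 at 0.0503 FPKM in WT and 0.185 in acc1-5, and neither was tested. The median log2 fold change of the 6 NIP genes with a mean of at least 1 FPKM was 1.01.

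Of the 3 SIP genes, SIP1-2 (AT5G18290, chromosome 5, 6055028 to 6058368) rose. Its main transcript was listed at 1.397 FPKM in WT (0.265 to 2.50) and 5.01 in acc1-5 (2.09 to 7.93), a 3.59-fold rise with q = 0.00923 in the authors' deposited table. A second, shorter transcript of the same gene had 1.24 FPKM in WT and 3.37 in acc1-5 and was not called (the authors' deposited table gives q = 0.179). SIP1-1, the most abundant SIP gene, had 84.0 FPKM in WT (51.7 to 110) and 91.5 in acc1-5 (56.4 to 119). SIP2-1 had 27.2 FPKM in WT and 40.4 in acc1-5, with bounds of 0 to 101 and 0 to 113, the widest relative to its level of the 26 members with at least 1 FPKM in WT. SIP1-2 and SIP2-1 are among 7 members whose locus in the tables overlaps another gene, together with TIP2-1, TIP3-2, TIP5-1, NIP2-1 and NIP6-1, so their levels are uncertain, and coordinates given for SIP1-2 span both genes.

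The members were also grouped by the organ in which textbook knowledge places them. These classes were set with earlier results of these data known, so their counts are not an independent test. Of 9 root-type genes, 6 were called higher in acc1-5, and no shoot-type gene was called. The 9 root-type genes are PIP2-2, PIP2-3, PIP2-4, TIP2-2, TIP2-3, TIP4-1, NIP1-1, NIP2-1 and NIP5-1. All 9 were tested, and 6 of them, or 66.7%, rose and 0 fell, against 10.9% of all tested genes called higher. Without PIP2-2 and PIP2-3, between which the split of reads is uncertain, 4 of 7, or 57.1%, rose. PIP2-4, TIP2-2 and NIP2-1 were not called, and TIP2-2 was the 1 member of this class with a lower value in acc1-5. The median log2 fold change of the 8 root-type genes with a mean of at least 1 FPKM was 1.19, and the range ran from -0.08 to 2.22. The 3 shoot-type genes, PIP2-6, TIP2-1 and NIP6-1, had log2 fold changes of 0.28, -0.45 and -0.67, and none was called, nor did any have an unadjusted p under 0.05 in the authors' deposited table. With 19.9% of all tested genes called, 3 genes are too few to set 0 calls apart from that share. The classes also differ in WT level: root-type genes had at most 63.1 FPKM, and PIP2-6, TIP2-1 and NIP6-1 had 210.2, 684 and 26.5. Of tested genes with at least 100 FPKM in WT, 5.65% were called higher. Of the 16 broadly expressed genes, 1 rose, 2 fell and 13 were not called, with a median of 0.02. These are 6.25% higher and 12.5% lower, near the 10.9% and 9.04% over all tested genes. The difference between root-type and shoot-type genes was not tested, as the tables hold no values of single libraries. Summed over their members, root-type genes went from 151 to 253 FPKM and shoot-type genes from 921 to 772, so shoot-type transcripts outnumbered root-type ones 6.09-fold in WT and 3.06-fold in acc1-5.

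**Figure D2:**
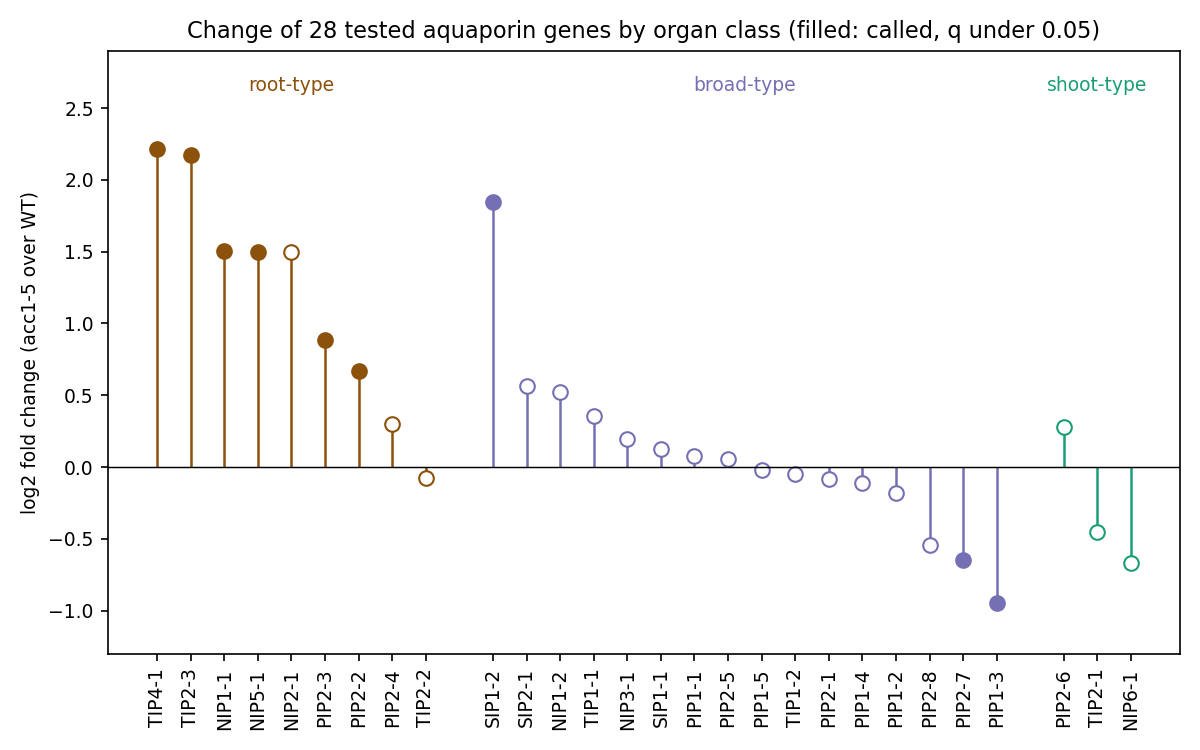
Log2 fold change of acc1-5 over WT for 28 tested aquaporins, grouped as root-type, broadly expressed and shoot-type; filled points were called at a q-value under 0.05, and NIP7-1, the tested gene of anthers, is not drawn. Filled points above 0 are 6 of 9 root-type genes and SIP1-2, and those below 0 are PIP2-7 and PIP1-3.

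Markers of root tissues moved in the same comparison. Of 6 root hair markers, 6 rose, and their summed level was 10.9 FPKM in WT and 101 in acc1-5. Of 10 tested endodermis markers 8 rose and 0 fell, and these 10 summed to 35.5 FPKM in WT and 87.6 in acc1-5. Of 4 root stele markers 2 rose and 0 fell, with summed levels of 38.9 and 85.2 FPKM. Of the 16 rises on these 3 lists, 5 were of genes under 1 FPKM in WT, where 32.3% of tested genes were called higher, against 10.9% over all levels. The stele sum rested on the phosphate exporter gene PHO1, which had 26.8 FPKM in WT and 73.2 in acc1-5, and the other 3 stele markers summed to 12.1 and 12.0 FPKM. SKOR, a potassium channel gene of the stele, had 0.620 FPKM in WT and 0.418 in acc1-5 and was not called. SCR and SHR, which pattern the root's inner layers, had 17.3 and 9.77 FPKM in WT and 16.7 and 8.30 in acc1-5 and were not called either. Of 8 leaf mesophyll markers 3, or 37.5%, fell and 0 rose, and their summed level was 18325 FPKM in WT and 10016 in acc1-5. All 8 had at least 100 FPKM in WT, a level at which 26.3% of tested genes were called lower, so their count of falls is near that background. The largest part of the mesophyll sum was RBCS1A, with 9403 FPKM in WT (0.165 to 28301) and 5028 in acc1-5 (245 to 9816.5). It was not called (the authors' deposited table gives q = 0.628), so the drop of this sum is uncertain. RCA, also not called, had WT bounds of 5.33 to 3915 FPKM. The median log2 fold changes of these lists were 3.05 for root hairs, 1.92 for the endodermis, 0.96 for the stele and -0.92 for the mesophyll, over the 6, 9, 3 and 8 markers with a mean of at least 1 FPKM, beside 1.19 for root-type and -0.45 for shoot-type aquaporins. Over all 11 endodermis and all 4 stele markers, the medians were 1.91 and 0.36. No marker on these lists was listed at 0 in either genotype. In whole seedlings, fewer cells of a type and less RNA per cell cannot be told apart, and the part of organ proportions in the aquaporin values was not tested.

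Called rises lay at lower WT levels than called falls. None of the 11 aquaporins with at least 100 FPKM in WT was called higher by the authors' Cuffdiff test, nor did any have a higher value with an unadjusted p under 0.05, and 2 of them, or 18.2%, were called lower. Among all 1522 tested genes of that level 5.65% were called higher and 26.3% lower, so the 2 falls are no more than the background of highly expressed genes. The 7 genes called higher ran from 0.360 to 63.1 FPKM in WT. Of tested genes between 1 and 100 FPKM in WT, 9.20% were called higher and 8.37% lower.

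**Figure D3:**
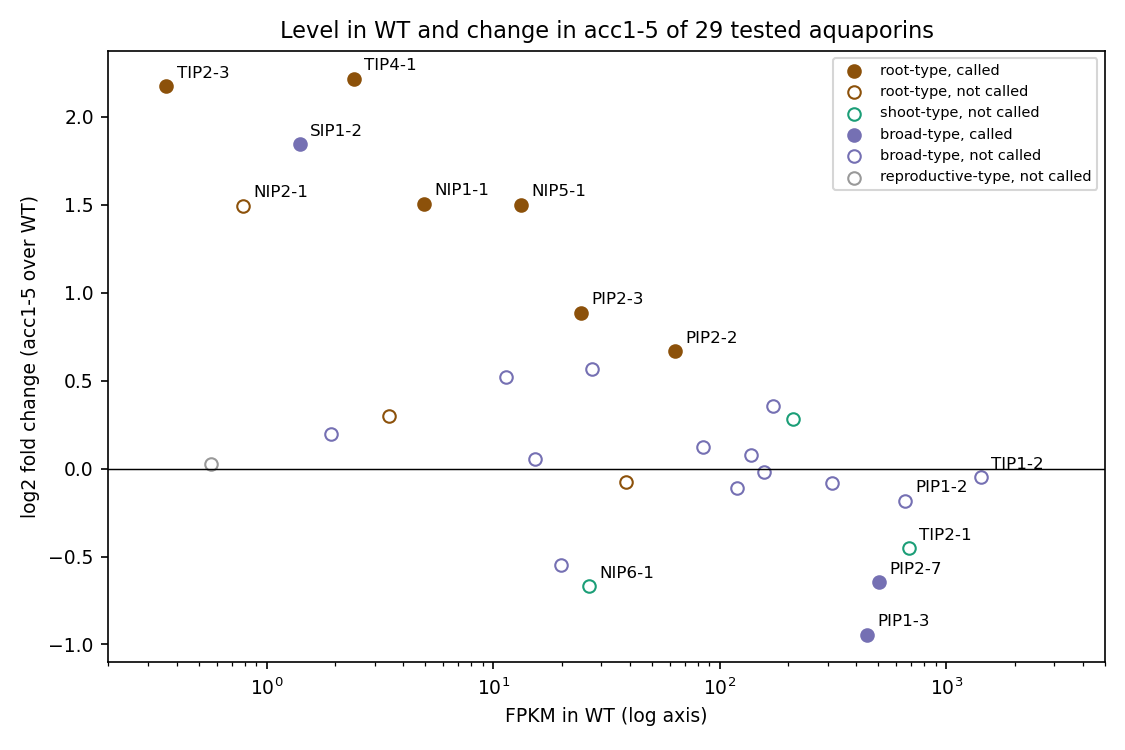
FPKM in WT (log axis) against the log2 fold change of acc1-5 over WT for the 29 tested aquaporins, coloured by organ class and filled where called. The called rises lie at 63.1 FPKM or less in WT, and the called falls, PIP2-7 and PIP1-3, at 506 and 446 FPKM.

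A few genes made up most of the aquaporin transcripts. The main transcripts of the 34 genes summed to 5156 FPKM in WT and 4639 in acc1-5, so the sum dropped by 517 FPKM. This is a change of -10.0%, beside -6.65% for the FPKM of all genes together. The sums have no error, and the WT bounds of TIP1-2 alone, 685 to 2142 FPKM, are wider than this drop. The 5 highest genes in WT, TIP1-2, TIP2-1, PIP1-2, PIP2-7 and PIP1-3, held 72.0% of the aquaporin sum in WT and 64.8% in acc1-5. PIP1-3 and PIP2-7 together dropped by 397 FPKM, and the other 32 genes together dropped by 120.2 FPKM. The share of PIP1-3 went from 8.66% to 5.00% of the aquaporin sum, and that of PIP2-7 from 9.81% to 6.97%. PIP genes held 51.8% of the sum in WT and 49.0% in acc1-5, TIP genes 44.8% and 46.1%, NIP genes 1.15% and 1.94%, and SIP genes 2.18% and 2.95%. With all 43 transcripts counted, aquaporins took 0.572% of the FPKM of all genes in WT and 0.552% in acc1-5. TIP1-2 remained first in the order, PIP1-2 and TIP2-1 exchanged the next places, and their bounds overlap widely in each genotype. NIP5-1 moved from place 20 to place 16 among the 34 genes, and PIP1-3 from place 5 to place 7.

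**Figure D4:**
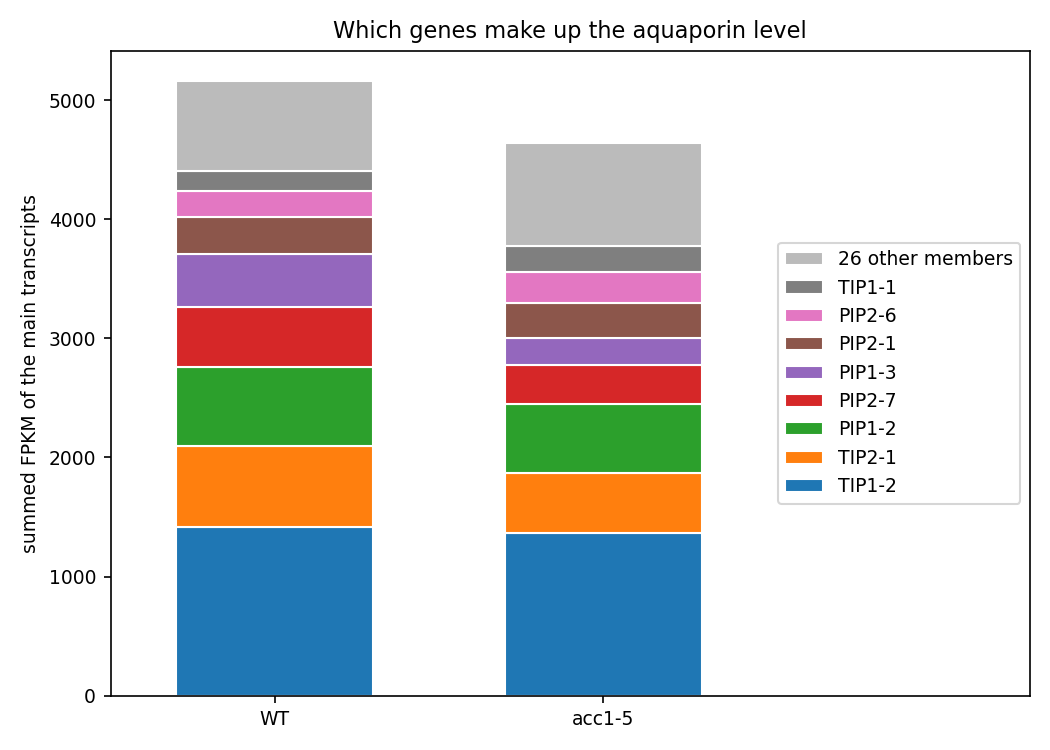
Summed FPKM of the main transcripts of the 34 aquaporins in WT and acc1-5, stacked by gene, with the members outside the highest 8 in grey. The stack is 5156 FPKM high in WT and 4639 in acc1-5, and the segments of PIP2-7 and PIP1-3 are smaller in acc1-5.

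More than 1 transcript was listed for 8 members. Of their minor transcripts 7 were tested and none was called by the authors' Cuffdiff test, while 1, the second form of SIP1-2, had an unadjusted p under 0.05. With 19.9% of tested genes called by their main transcripts, 7 minor transcripts are too few to set 0 calls apart from that share. The largest share of a gene held by a second form in WT, among genes above 100 FPKM, was that of PIP1-4, 19.1% in WT and 18.6% in acc1-5. Transcripts chosen for the 34 genes were 759 to 1653 bases long, and the genes lie on all 5 chromosomes.

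Among 12 genes known to regulate aquaporins, 1, or 8.33%, rose and 0 fell, near the 10.9% of all tested genes called higher, and their median log2 fold change was -0.03. The gene that rose was TSPO, which encodes a membrane protein that takes PIP2-7 to degradation, from 0.492 FPKM in WT (0.0868 to 0.868) to 2.12 in acc1-5 (0.868 to 3.39), with q = 0.00769 in the authors' deposited table. Its WT level is in the range under 1 FPKM, where 32.3% of tested genes were called higher. The syntaxin genes SYP121 and SYP61, which act in the delivery of PIPs to the cell surface, had 48.8 and 27.6 FPKM in WT and 43.0 and 29.4 in acc1-5. OST1, a kinase gene of abscisic acid signalling whose product phosphorylates PIP2-1, had 13.6 FPKM in WT and 13.5 in acc1-5, and the ubiquitin ligase gene RMA1 had 19.1 and 18.3. Of 3 boron exporter genes, 2 were tested and 1 rose, where 10.9% of all tested genes were called higher. BOR2, a borate exporter gene of roots, rose from 13.1 FPKM in WT (8.93 to 17.2) to 35.5 in acc1-5 (24.3 to 46.7), with q = 0.000746 in the authors' deposited table. BOR1, which loads boron into the xylem, had 24.5 FPKM in WT and 18.7 in acc1-5 and was not called (the authors' deposited table gives q = 0.166). BOR4 was under 1 FPKM in both genotypes and was not tested.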

How the data were processed

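RNA from 3 WT and 3 acc1-5 seedling libraries was analysed, and 42 libraries of chromatin immunoprecipitation or input were not used here. The submitters' processing notes name TopHat 1.4.0, Bowtie, Cufflinks 2.1.1, Cuffdiff 2.1.1 and the TAIR10 build. The authors deposited FPKM per transcript and genotype with bounds, whose confidence level is not given in the sources used here. Per the file headers, the authors' comparison holds a log2 fold change, a p-value and a q-value, and a test statistic (score) that was not used. The column named ACC1 was read as acc1-5. Each gene stands for its transcript of highest mean FPKM, giving 20509 tested genes. Medians use genes with a mean of at least 1 FPKM and values above 0 in both genotypes, with no pseudocount. Depth is unknown: 15.8% of low values in each genotype lay within 5% of the best common step, so reads could not be recovered. The lowest p-value given, 5e-05, was held by 5 members. limma was planned for values of single libraries, which these tables do not hold. Members, organ classes and lists were chosen with earlier results of these data known. Members with a mean of at least 1 FPKM and called genes of the regulator and boron lists are named, and of the marker lists some examples. Python 3.11.15 and pandas 2.3.3 were used and the steps tested on simulated data. Starts count from 1.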

Additional observations from a re-analysis of the deposited data

How the results depend on the processing

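No paired analysis was possible because the tables hold 1 value per genotype, and for the same reason no library could be left out. Requiring bounds that do not overlap, in place of a q-value under 0.05, left 3 aquaporins higher (TIP4-1, NIP1-1 and NIP5-1) and 0 lower, where 5.24% and 1.63% of all tested genes pass; bounds of this kind are a stricter rule than the test. A q-value under 0.01 left 6 higher and 1 lower, since TIP2-3 and PIP2-7 no longer passed. Adjusting over 1 transcript a gene kept the counts of 7 higher and 2 lower, and the limit of 1 FPKM gave 6 and 2, since TIP2-3 is under it. The share of all tested genes called under that limit was not counted. With log2(FPKM + 1), the NIP median was 0.67 and the root-type median 0.85, in place of 1.01 and 1.19, as a pseudocount shrinks the change of low genes. Without the filter on low values the TIP median was 0.64 in place of -0.05, because TIP1-3, TIP2-3 and TIP3-2 enter, and the root-type median was 1.50. Leaving out the near-identical PIP2-2 and PIP2-3, an alternative chosen after seeing the data, gave a root-type median of 1.50. It left 4 of 7 root-type genes, or 57.1%, called higher, in place of 66.7%, where 10.9% of all tested genes were called higher. Subtracting the median of tested genes with a mean of at least 1 FPKM, -0.02, could not change a sign among the 9 called genes. Their smallest log2 fold change was 0.65 in size. Summing all transcripts of a gene changed no sign and moved SIP1-2 from 1.84 to 1.67. Depth is unknown, and the precision can be read only from the bounds: the half-width of the WT bounds ran from 31.9% to 186% of the level among the 26 members with at least 1 FPKM, with a median of 39.7%, and was widest for SIP2-1.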
